A study of Homo sapiens with 8 samples.

Results

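The DLK1-MEG3-DIO3 domain is a stretch of imprinted genes on human chromosome 14, and it holds the gene for MEG3, the RNA after which 2 of the 3 oligos used here are named. It was taken as every deposited region with at least 1 bp in chr14:100700001-101700000 of hg38, a window of 1 Mb. This gave 225 of 327994 regions, and the 6 members described are DLK1, MEG3, RTL1, MEG8, MEG9 and DIO3. The experiment measured which fragments of genomic DNA stay with an RNA oligo. RNA-free DNA of H1, a human embryonic stem cell line, was sonicated to 200 to 300 bp, and 6 to 7 µg of it was mixed with 20 pmol of a biotin-carrying RNA oligo, at 37 °C for 1 h, with KCl at 50 mM and MgCl2 at 5 mM. DNA bound to the RNA was collected on streptavidin beads, released with RNases and sequenced. The oligos were GATA6-AS TFR1 and a MEG3 pair, TFR1 and TFR2, where TFR is read here as a triplex-forming region, and the control was the same procedure with no oligo; each of the 4 groups had 2 libraries from independent experiments, 8 in all. For each oligo the authors deposited a captured list, with positive log2 ratios, and a control list, with negative ones. The captured list is read as regions with more signal with the oligo and the control list as regions with more signal with no oligo, from the list names and the signs. A region carries a single log2 ratio and no value per library, so neither the spread between libraries nor the depth behind a region is known, and no difference below has a replicate test.

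In this domain the parental chromosomes are used differently. The paternal copy expresses the protein-coding genes DLK1, RTL1 and DIO3, while the maternal copy expresses the noncoding RNAs MEG3, MEG8 and MEG9 and, from the same direction, large clusters of snoRNAs and miRNAs. A differentially methylated region between DLK1 and MEG3 controls which set is on, and loss of MEG3 expression is a known trait of some cultured human pluripotent stem cells. An RNA-DNA triplex forms when a single RNA strand lies in the major groove of a DNA duplex, usually along a run of purines. The DNA used here was stripped of RNA, both parental copies were present together, and no expression was measured, so the values below describe binding in solution and carry no information on allele or activity.

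No sequence of the captured DNA came with the lists, so the sequences shown are those of the small RNA genes and promoters of the domain that captured regions reach. They come from RefSeq tables of GRCh38.p14. Captured regions overlapped 4 miRNA genes by at least 1 bp: MIR770, MIR665 and MIR370 with GATA6-AS TFR1, and MIR1185-1 with MEG3 TFR1. Their mature miRNAs are printed from 5′ to 3′ with the seed, bases 2 to 8, in capitals.
hsa-miR-770-5p: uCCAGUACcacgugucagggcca
hsa-miR-665: aCCAGGAGgcugaggccccu
hsa-miR-370-5p: cAGGUCACgucucugcaguuac
hsa-miR-370-3p: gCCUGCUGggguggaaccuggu
hsa-miR-1185-5p: aGAGGAUAcccuuuguauguu
hsa-miR-1185-1-3p: aUAUACAGggggagacucuuau
The 6 seeds all differ from each other, and only that of hsa-miR-1185-1-3p recurs under another mature name in the window, in hsa-miR-1185-2-3p. Copies of a mature miRNA under the same name at another gene were not counted. Region edges fell on steps of 50 bp and the DNA was in fragments of 200 to 300 bp. Captured bases here and below therefore follow the listed regions and do not mark exact edges of binding. The printed mature parts of MIR770, MIR665 and MIR370 lay wholly within captured regions, whereas neither arm of MIR1185-1 did. The hairpins make this visible, with the captured bases in capitals: 98 of 98 bases for MIR770 (chr14:100852390-100852487) and 72 of 72 for MIR665 (chr14:100875033-100875104), both with GATA6-AS TFR1, and 12 of 86 for MIR1185-1 (chr14:101042977-101043062) with MEG3 TFR1, all on the plus strand.
MIR770: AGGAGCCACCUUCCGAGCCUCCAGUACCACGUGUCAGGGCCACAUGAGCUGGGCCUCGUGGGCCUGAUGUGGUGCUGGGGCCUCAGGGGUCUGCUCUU
MIR665: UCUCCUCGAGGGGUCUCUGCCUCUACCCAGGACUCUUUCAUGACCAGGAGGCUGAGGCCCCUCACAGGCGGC
MIR1185-1: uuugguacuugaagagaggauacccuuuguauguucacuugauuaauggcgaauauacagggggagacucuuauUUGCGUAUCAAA

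The 250 bases before the start of MEG3 and of RTL1 are shown because both hold the edge of a GATA6-AS TFR1 region, again with the captured bases in capitals. For MEG3 (chr14:100825858-100826107, plus strand) 43 of 250 bases were captured, and for RTL1 (chr14:100903723-100903972, minus strand) 72 of 250.
MEG3: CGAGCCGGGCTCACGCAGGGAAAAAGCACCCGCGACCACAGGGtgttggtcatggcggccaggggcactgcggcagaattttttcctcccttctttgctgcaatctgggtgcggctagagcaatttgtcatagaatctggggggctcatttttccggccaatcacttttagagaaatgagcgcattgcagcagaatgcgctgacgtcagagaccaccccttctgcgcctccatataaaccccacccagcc
RTL1: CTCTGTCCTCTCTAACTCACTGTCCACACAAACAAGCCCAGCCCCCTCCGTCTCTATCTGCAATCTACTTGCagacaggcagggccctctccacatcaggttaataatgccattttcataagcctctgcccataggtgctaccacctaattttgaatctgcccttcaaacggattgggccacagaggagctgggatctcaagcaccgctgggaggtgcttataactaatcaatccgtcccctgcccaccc
The longest run of purines or of pyrimidines in the MEG3 stretch is 18 pyrimidines at bases 79 to 96 of the printed sequence, outside the captured bases. In the RTL1 stretch no such run is longer than 8 bases. Over promoters of 300 bases, 250 before to 50 after a start, a run of 12 or more purines on either strand was found in 44.7% of 33725 autosomal promoters and in 11 of 19 in the domain. The 19 promoters belong to 17 genes, and MEG3 is counted more than once, with overlapping promoters that hold the same run. The motif GAGAGA, searched on both strands and free to overlap such runs, was found in 22.4% of the autosomal promoters and in 4 of 19 in the domain, those of LINC00524, LOC124903386, LOC124903387 and MEG9. Captured regions reached the promoters of 5 of 17 genes of the domain with GATA6-AS TFR1 (MEG3, RTL1, LOC105370669, LOC105370670 and LOC124903407), against 16.2% of 26246 genes of the promoter table. With MEG3 TFR1 and MEG3 TFR2 the count was 0 of 17, against 7.62% and 3.76% of the table. Some of these calls turn on less than the 50 bp step of the region edges. GATA6-AS TFR1 reached the promoter of LOC124903407 by 14 bp, and the nearest MEG3 TFR1 region lay 37 bp from it. Another MEG3 TFR1 region lay 29 bp from the promoter of LINC00524.

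The domain held many captured and few control regions with all 3 oligos. There were 61 captured and 1 control regions with MEG3 TFR1, 46 and 0 with MEG3 TFR2, and 112 and 5 with GATA6-AS TFR1. The autosomes as a whole held 7.09, 6.72 and 2.88 captured regions per control region for these oligos in the same order. The domain held 61 (MEG3 TFR1) and 22.4 (GATA6-AS TFR1), and no ratio can be given for MEG3 TFR2. The autosomal ratios pool all windows, some of them richer in control than in captured regions. How many windows reach the ratio of the domain was not computed. Captured regions stood at 61, 46 and 112 per Mb in the domain, against 32.0, 26.2 and 37.4 per Mb over the autosomes, which is 1.91, 1.75 and 3.00 times as dense. They covered 2.19%, 1.60% and 5.15% of the bases of the domain, against 1.35%, 0.954% and 1.77% of autosomal bases. Control regions ran the other way, at 1, 0 and 5 per Mb in the domain against 4.51, 3.90 and 13.0 per Mb over the autosomes.

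Neither count is rare when read alone, and how rare the pair is was not computed. Of the 2728 autosomal windows of 1 Mb, 16.3% held at least as many MEG3 TFR1 captured regions as the domain, 17.8% at least as many MEG3 TFR2 regions and 8.83% at least as many GATA6-AS TFR1 regions. At most as many control regions were held by 25.5%, 14.9% and 25.8% of the windows. With each oligo, other windows met both conditions together, so the pair of counts is not particular to the domain. The plot of captured regions per window shows the domain in the upper arm of each distribution, well short of the fullest windows, which held 197, 163 and 405. The same excess of captured over control regions was seen in the IGF2-H19-KCNQ1 window on chromosome 11, another imprinted domain, with 75 and 1, 73 and 0, and 232 and 7. The imprinted SNORD116-SNORD115 window on chromosome 15 had fewer captured and more control regions than the domain with each oligo, 22 and 8, 28 and 2, and 38 and 16.

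**Figure D1:**
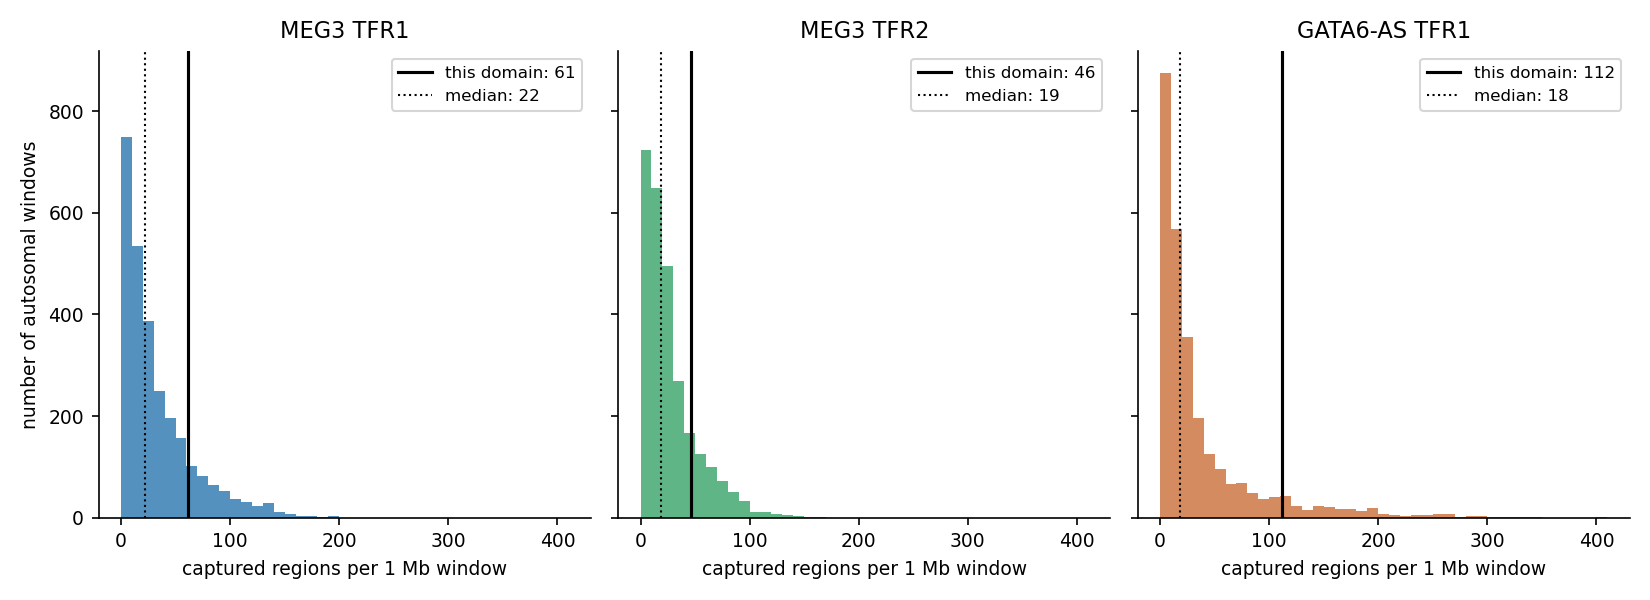
Captured regions per autosomal window of 1 Mb (x axis, number of regions) against the number of windows (y axis), 1 panel per oligo. The solid line marks the DLK1-MEG3-DIO3 domain at 61, 46 and 112 regions, and the dotted line the median window at 22, 19 and 18.

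The log2 ratios of the domain lay within the range seen elsewhere. The log2 ratio, which is the authors' own value for each region, had a median of 1.61 with MEG3 TFR1 (0.71 to 3.39), 1.55 with MEG3 TFR2 (0.90 to 3.60) and 1.40 with GATA6-AS TFR1 (0.70 to 3.05). Over the autosomes the medians were 1.41, 1.44 and 1.34. As a linear ratio the middle MEG3 TFR1 region of the domain had 3.06 times as much signal with the oligo as with no oligo. The regions were short, with median widths of 300, 350 and 350 bp, and the widest of them measured 1000, 650 and 1650 bp.

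**Figure D2:**
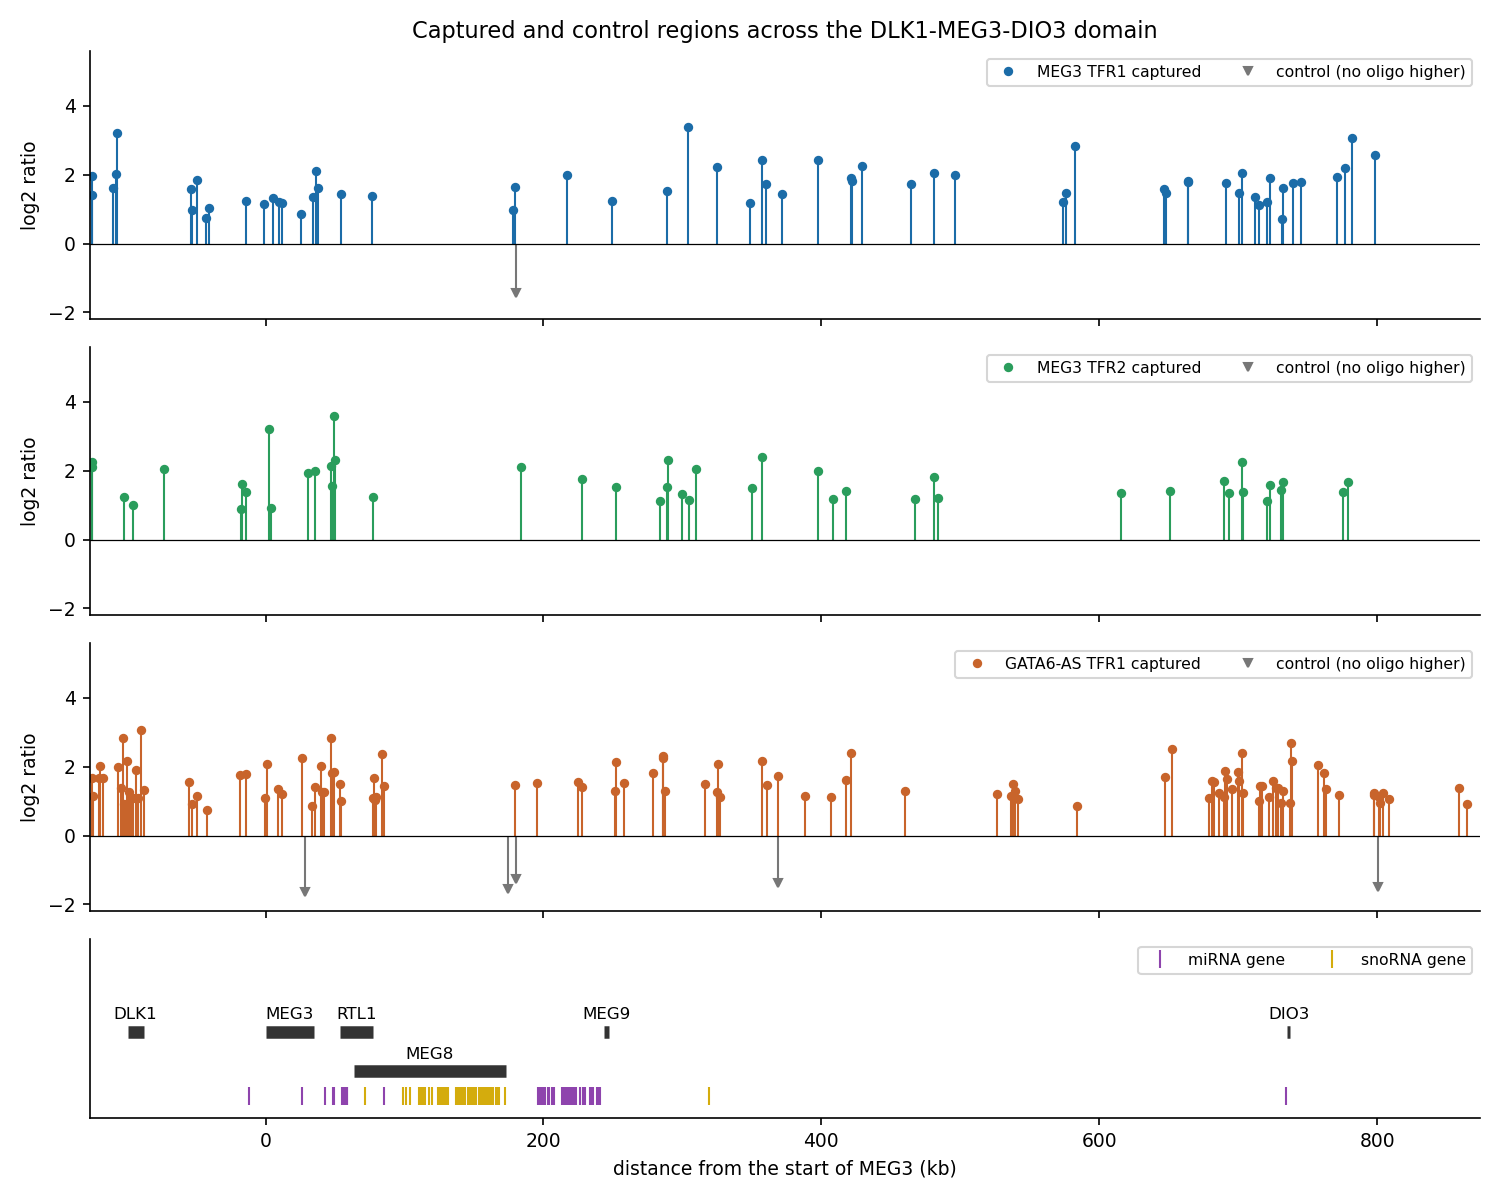
Log2 ratio (y axis) of every captured region (circles) and control region (triangles) by distance from the start of MEG3 in kb (x axis), 1 panel per oligo, with the members and the miRNA and snoRNA genes drawn below to the same scale. With each oligo the snoRNA-rich part of MEG8 has no captured regions, as do some stretches between MEG9 and DIO3, and the 6 control regions lie far apart except for those between MEG8 and the next miRNA cluster.

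The captured regions were not spread evenly along the domain. With GATA6-AS TFR1 the densest places were DLK1 itself, with 52.9 regions per 100 kb, the 11.2 kb from DIO3OS, an RNA gene antisense to DIO3, to the end of DIO3, with 44.5, the 18.7 kb between MEG3 and RTL1, with 42.7, and the 26.9 kb before DLK1, with 40.9. Captured bases made up 19.9%, 19.6%, 21.9% and 20.3% of these places. MEG3 TFR2 was densest between MEG3 and RTL1, at 26.7 regions per 100 kb, and MEG3 TFR1 before DLK1 and from DIO3OS to DIO3, at 18.6 and 17.8. The largest place, the 479 kb between MEG9 and DIO3OS, held the most regions, 29 with MEG3 TFR1, 23 with MEG3 TFR2 and 44 with GATA6-AS TFR1, at densities of only 6.05, 4.80 and 9.18 per 100 kb. The shorter places rest on 0 to 11 regions per oligo, so their densities are coarse.

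**Figure D3:**
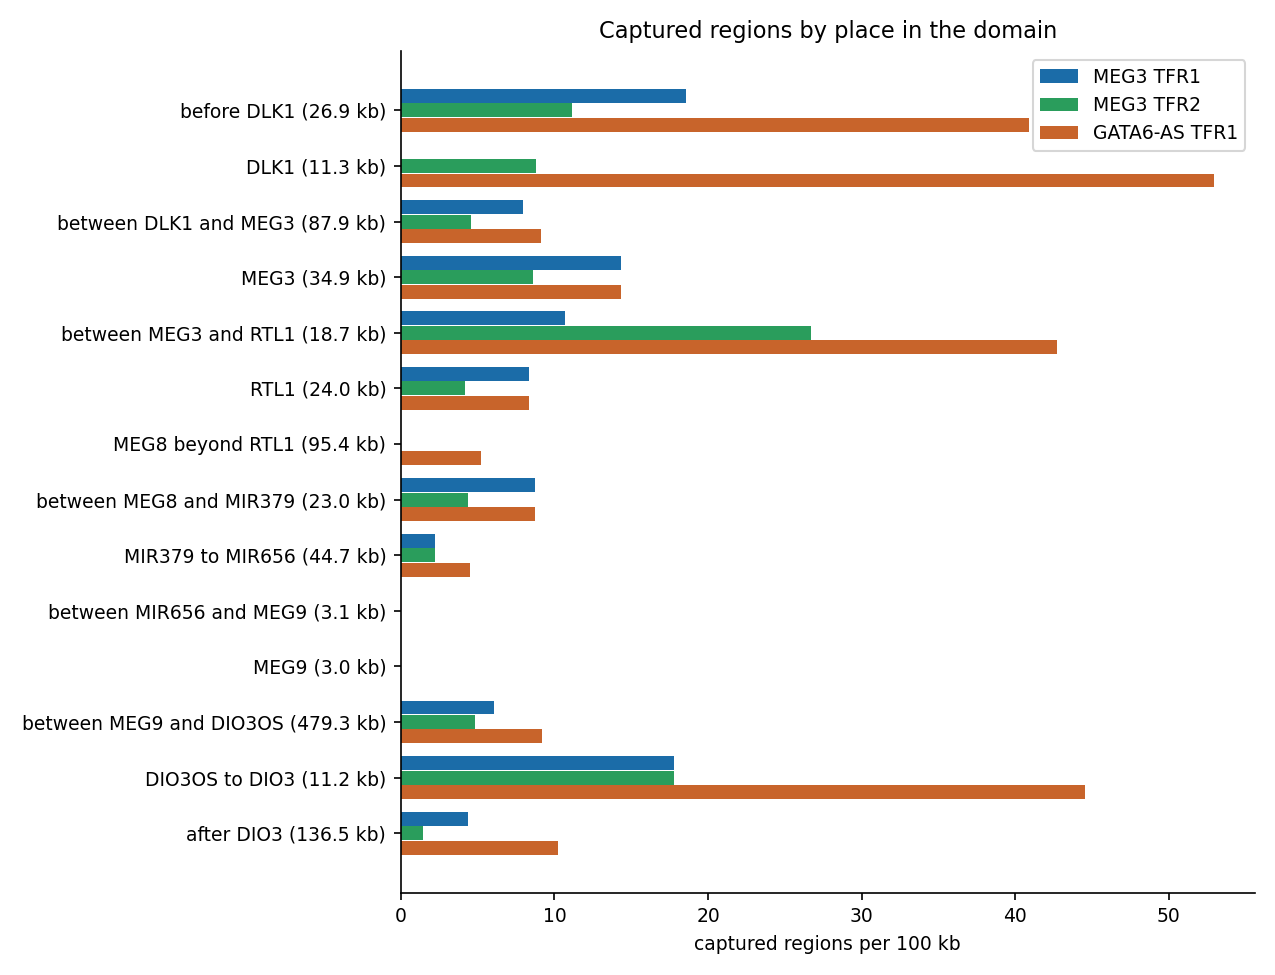
Captured regions per 100 kb (x axis) in 14 consecutive places of the domain (y axis, with lengths in kb), 1 bar per oligo, bars starting at 0. GATA6-AS TFR1 exceeds 40 per 100 kb in DLK1, before DLK1, between MEG3 and RTL1 and from DIO3OS to DIO3, and MEG9 has no bar.

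Counting a member as captured when a region lay in the gene or within 1 kb of either end, MEG3 TFR1 captured 3 of 6 members, MEG3 TFR2 4 of 6 and GATA6-AS TFR1 5 of 6. Among all 56756 autosomal genes the shares were 39.1%, 35.6% and 43.5%, and among protein-coding genes 66%, 62.5% and 73.9%. For lncRNA genes, the class of MEG3, MEG8 and MEG9, the shares within 1 kb were 41%, 36.7% and 43.5%. Within 5 kb the counts were 5, 5 and 6 of 6 members, against 51.6%, 47.6% and 54.3% of all autosomal genes. The members differ in length by far, between 1958 bp for DIO3 and 109465 bp for MEG8, so their counts cannot be compared without it. A control region met the 1 kb rule at 1 member only, MEG3, and with GATA6-AS TFR1 alone, against 22.8% of all autosomal genes (11.1% and 10.2% for the MEG3 oligos). The gene table gives no exons, so whether a region lies in an exon or an intron was not determined.

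Of the paternally expressed members, DLK1 showed the clearest contrast between oligos. DLK1 encodes a membrane protein related to the Notch ligands that restrains differentiation of fat cells. GATA6-AS TFR1 had 6 regions in its 11.3 kb (chr14:100726892-100738224) and 3 more within 1 kb. Their log2 ratios ran between 0.70 and 3.05. The highest, at chr14:100736351-100737000 near the far end of the gene, was 8.30-fold, the strongest GATA6-AS TFR1 region of the whole domain, and a region of 4.46-fold lay before the gene at chr14:100726351-100726500. MEG3 TFR2 had a single region in DLK1, at chr14:100730501-100731100 with a log2 ratio of 1.01, and it contained the GATA6-AS TFR1 region at chr14:100730701-100731000 of 1.09. MEG3 TFR1 had none, and its nearest region ended 7992 bp away, at chr14:100718751-100718900 with a log2 ratio of 3.22.

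RTL1, a gene derived from a retrotransposon that is needed in the placenta of the mouse, spans chr14:100879753-100903722 and was captured mainly at its ends. At the lower end lay a MEG3 TFR1 region at chr14:100880451-100880800 with a log2 ratio of 1.43, inside a GATA6-AS TFR1 region at chr14:100880301-100881000 of 1.01, and a further GATA6-AS TFR1 region at chr14:100878851-100880100 of 1.51. At the upper end, where the gene starts on the minus strand, lay MEG3 TFR1 at chr14:100902251-100902600 with 1.39, MEG3 TFR2 at chr14:100903101-100903400 with 1.25, and GATA6-AS TFR1 at chr14:100903351-100903700 with 1.10 and at chr14:100903901-100904400 with 1.66. The MEG3 TFR2 region and the nearer GATA6-AS TFR1 region overlap at their edges, and no captured region of any oligo lay between the ends.

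DIO3 encodes the deiodinase that inactivates thyroid hormone and is the last member, at chr14:101561495-101563452. Only GATA6-AS TFR1 met the 1 kb rule there, with 3 regions running from the end of the gene outwards. The region at chr14:101563201-101563650 had a log2 ratio of 0.95, that at chr14:101563701-101564050 had 2.69 and that at chr14:101564351-101564950 had 2.17. The middle region, 6.44-fold, was among the 5 highest of GATA6-AS TFR1 in the domain. The nearest captured region of MEG3 TFR1 lay 1999 bp past the end of DIO3, and that of MEG3 TFR2 lay 3145 bp before its start. The stretch from DIO3OS to DIO3 held 2 regions with MEG3 TFR1, 2 with MEG3 TFR2 and 5 with GATA6-AS TFR1.

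MEG3 is the maternally expressed RNA that both MEG3 oligos are named after, and its own DNA was captured by all 3 oligos. In its 34.9 kb (chr14:100826108-100861026) there were 5 regions with MEG3 TFR1, 3 with MEG3 TFR2 and 5 with GATA6-AS TFR1, and with 1 kb to each side 7, 4 and 7. Captured bases made up 5.01%, 3.01% and 8.45% of the gene. The oligo named after another RNA gave as many regions in the gene as MEG3 TFR1 did. At 14.3 regions per 100 kb for both MEG3 TFR1 and GATA6-AS TFR1 and 8.59 for MEG3 TFR2, the gene was less dense than the DNA just after it for MEG3 TFR2 and GATA6-AS TFR1.

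The MEG3 TFR1 regions in the gene were all weak, with log2 ratios between 0.87 and 1.37, below the median of the domain for this oligo. They lay at chr14:100831451-100831750 with 1.32, chr14:100835351-100835650 with 1.19, chr14:100837651-100838000 with 1.18, chr14:100851651-100852200 with 0.87 and chr14:100860051-100860300 with 1.37. A stronger region of 2.12 lay just past the end of the gene, at chr14:100861951-100862600. MEG3 TFR2 had the strongest region of the gene, 2543 bp after its start at chr14:100828651-100828900, with a log2 ratio of 3.21 or 9.27-fold, and others of 0.91 at chr14:100829501-100830050 and 1.94 at chr14:100856701-100856950. No region of another oligo overlapped the strongest.

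GATA6-AS TFR1 had a region reaching into the 250 bases before the start, shown above in capitals, at chr14:100825551-100825900 with a log2 ratio of 1.09. The next, at chr14:100826951-100827900 and 843 bp into the gene, had 2.07. Further into the gene its regions at chr14:100835001-100835650 and chr14:100837701-100838150, with 1.35 and 1.21, overlapped the MEG3 TFR1 regions there. At chr14:100852151-100852500 a region of 2.24, or 4.73-fold, contained all of MIR770. It overlapped the MEG3 TFR1 region at chr14:100851651-100852200, of 0.87. The sole control region at a member lay further on, at chr14:100854001-100854200, with a log2 ratio of -1.65. Past it lay the weakest GATA6-AS TFR1 region of the gene, at chr14:100859201-100859750 with 0.86.

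**Figure D4:**
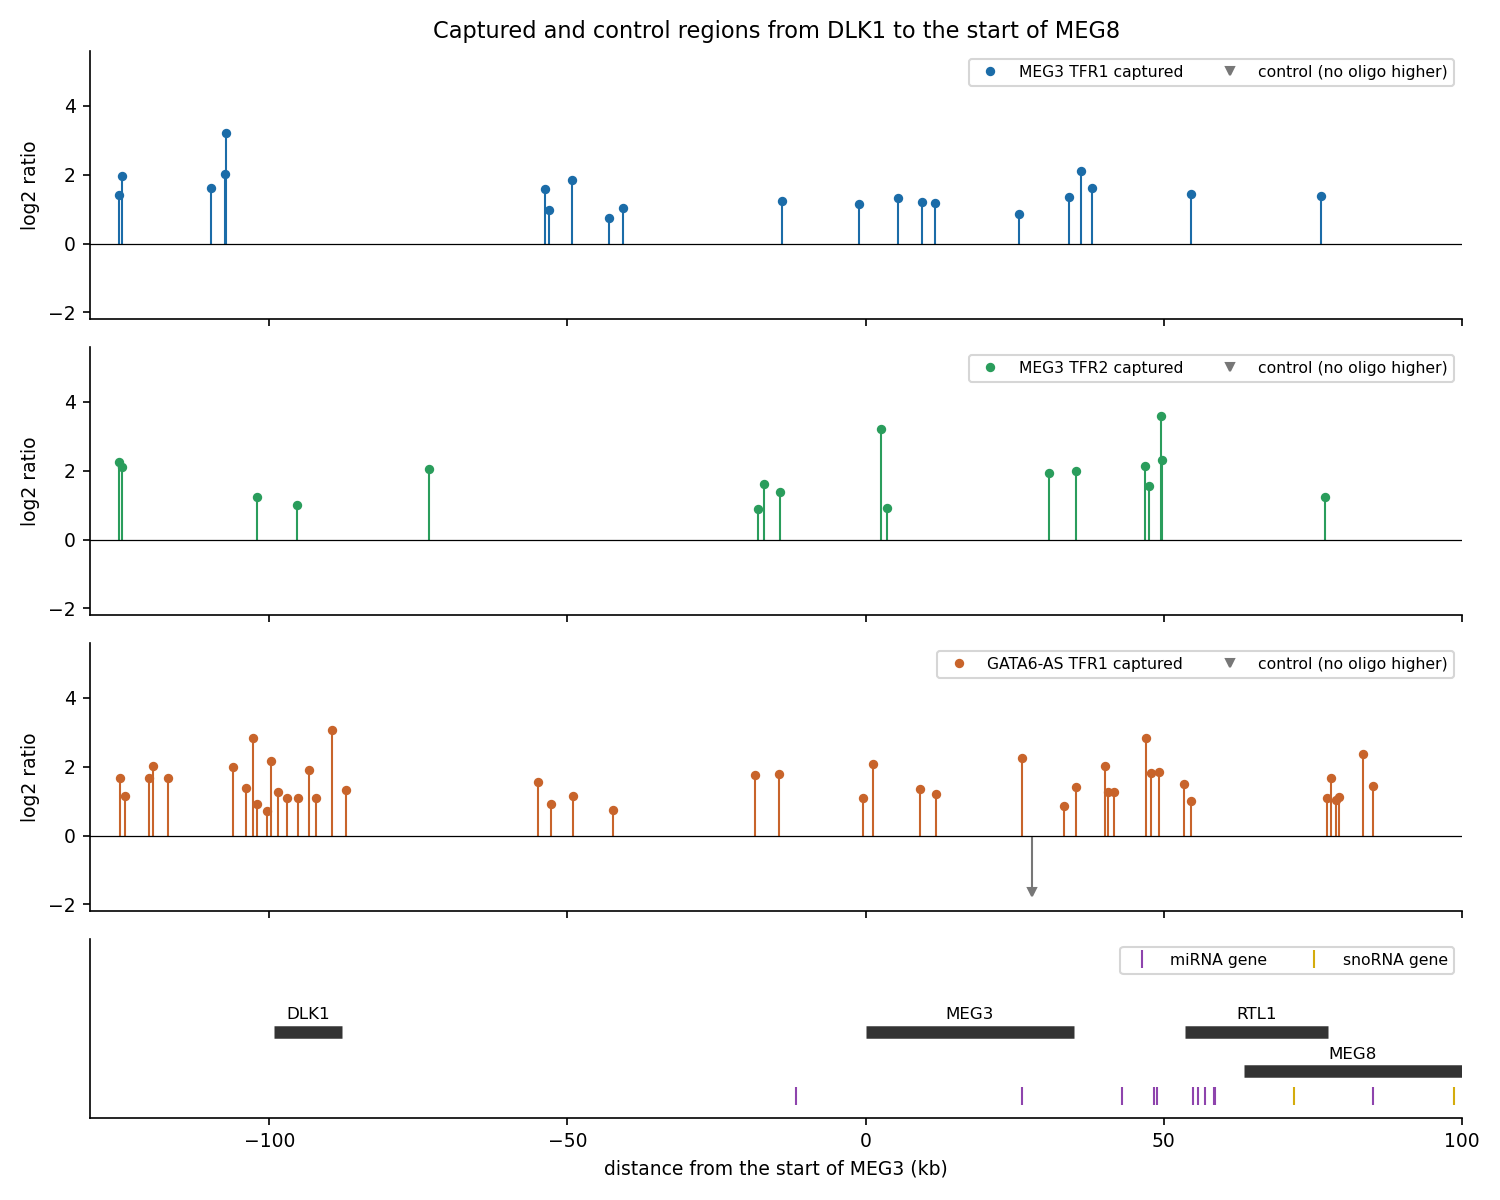
Log2 ratio (y axis) of captured regions (circles) and control regions (triangles) by distance from the start of MEG3 in kb (x axis), from before DLK1 to the first part of MEG8, 1 panel per oligo, with genes drawn below. The GATA6-AS TFR1 panel is filled in and before DLK1, where MEG3 TFR1 has no region within the gene and MEG3 TFR2 has 1.

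MEG8 and MEG9 are the other long noncoding RNAs of the maternal copy. MEG8 spans chr14:100889649-100999113 and overlaps the upper end of RTL1, so it shares that end's regions. These are its only regions with MEG3 TFR1, at 1.39, and with MEG3 TFR2, at 1.25. GATA6-AS TFR1 had 6 regions in MEG8, of which the strongest beyond RTL1 was at chr14:100909401-100909700 with a log2 ratio of 2.38 or 5.22-fold, and the last, at chr14:100911001-100911550 with 1.44, contained MIR370. MEG9 (chr14:101069911-101072937) was the only member with no captured region within 1 kb for any oligo. The nearest lay 2414 bp away with MEG3 TFR1, 5064 bp with MEG3 TFR2 and 4114 bp with GATA6-AS TFR1. The gene is 3027 bp long.

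From that last GATA6-AS TFR1 region onward, MEG8 held no region in any of the 6 lists. The gap ran over chr14:100911551-101000450, 88.9 kb, and was the longest of the domain. It contained 45 of the 47 snoRNA genes of the window, and 41 of the 47 belong to the repeated C/D box families SNORD112, SNORD113 and SNORD114. None of the 47 snoRNA genes was overlapped by a captured region with any oligo, and none had a captured region within 1 kb. Among all 1150 autosomal snoRNA genes the overlapped shares were 0.957% with MEG3 TFR1, 0.87% with MEG3 TFR2 and 2.52% with GATA6-AS TFR1. With shares this small a count of 0 overlapped among 47 is not a result about these genes. Within 1 kb the autosomal shares were larger, 6.26%, 6.35% and 12.3% in the same order. Since 45 of the 47 lie in the same gap, they are not separate cases, and the 0 within 1 kb is given as a description. Gaps of this length are not rare either: 3378 of the 259970 autosomal gaps of up to 1 Mb were at least as long, and they held 20.2% of the bases in such gaps. In the SNORD116-SNORD115 window, where the snoRNA genes are also repeated, 0 of 30 SNORD116 genes were overlapped, and for the 48 SNORD115 genes the counts were 0, 1 and 5. Whether short fragments of repeated genes could be placed uniquely was not tested.

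Few miRNA genes were overlapped, in the window as over the autosomes. Of 54 miRNA genes in the window, 1 was overlapped with MEG3 TFR1, 0 with MEG3 TFR2 and 3 with GATA6-AS TFR1, or 1.85%, 0% and 5.56%. The shares of all 1793 autosomal miRNA genes were 3.9%, 3.46% and 11.7%. Within 1 kb there were 4, 5 and 12 of the 54 (7.41%, 9.26% and 22.2%), against 16.8%, 14% and 30.2% of all autosomal miRNA genes. Several of these lie in groups that share a region, so they are not separate cases. Counts this small are not read as a result about these genes. The MIR379 to MIR656 cluster, 44.7 kb with 42 of the miRNA genes, held 1, 1 and 2 captured regions. Among the 5 highest MEG3 TFR2 regions were chr14:100875451-100875750, with a log2 ratio of 3.60 or 12.1-fold, the highest of any oligo in the domain and 347 bp past MIR665, and chr14:100875801-100875950, with 2.32. The former lay inside the GATA6-AS TFR1 region that contained MIR665, at chr14:100874901-100875750 with 1.86. The MIR1185-1 region of MEG3 TFR1 at chr14:101043051-101043200 had 2.00. MIR431, in the lower end of RTL1, lay 7 bp from a GATA6-AS TFR1 region, which is less than the 50 bp steps of the region edges.

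Among the 5 highest regions of each oligo, those outside the members overlapped no gene of the table. Most captured regions of the domain overlapped no gene either, and some of the highest lay within 1 kb of a gene. The highest MEG3 TFR1 region, at chr14:101130051-101130350 with a log2 ratio of 3.39 or 10.5-fold, lay 6506 bp from LINC02285. Its region at chr14:101608201-101608450, with 3.07, was 19899 bp from LINC02320, that at chr14:101624701-101624850, with 2.58, was 3499 bp from the same gene, and that at chr14:101408201-101408450, with 2.84, was 279 bp from LINC00524. These are noncoding RNA genes of the long interval around DIO3. For MEG3 TFR2 the others among the 5 highest were chr14:101182951-101183350, with 2.41, and chr14:101115651-101115850, with 2.32. For GATA6-AS TFR1 they were chr14:100872951-100873300, with 2.85, between MEG3 and RTL1, chr14:100723001-100723600, with 2.83, before DLK1, and chr14:101478501-101478850, with 2.52. The region of 2.85 overlapped a MEG3 TFR2 region at chr14:100872651-100873250, with 2.12.

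The domain had 1 control region of MEG3 TFR1 and 5 of GATA6-AS TFR1, at log2 ratios between -1.65 and -1.27. Those of both oligos met at chr14:101006101-101006350 (MEG3 TFR1, -1.44) and chr14:101006001-101006350 (GATA6-AS TFR1, -1.27), between MEG8 and the MIR379 cluster in the noncoding gene LOC124903407. Both lists were made against the same no-oligo libraries. A captured region of each of these oligos lay close by, at chr14:101005351-101005550 and chr14:101005351-101005600, with log2 ratios of 1.65 and 1.46. No captured region of the domain overlapped a control region.

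Most captured DNA of the domain was captured by a single oligo, as over the autosomes. Joined where they overlapped, the 219 captured regions made 177 loci, of which 143 (80.8%) came from 1 oligo, 29 (16.4%) from 2 and 5 (2.82%) from all 3. Joined in the same way, the 223301 autosomal loci came from 1 oligo in 84.1%, from 2 in 13.2% and from all 3 in 2.72%. Between the oligos named after MEG3, 10 of 61 MEG3 TFR1 regions (16.4%) overlapped a MEG3 TFR2 region and 9 of 46 MEG3 TFR2 regions (19.6%) a MEG3 TFR1 region, against 14.3% and 17.6% over the autosomes. With GATA6-AS TFR1 18 of 61 (29.5%) and 18 of 46 (39.1%) overlapped, against 19.004% and 25.124% over the autosomes. Of its own 112 regions 17 and 18 (15.2% and 16.1%) overlapped MEG3 TFR1 and MEG3 TFR2, against 16.2% and 17.3%. Because the comparisons share the no-oligo libraries, these overlaps are given as a description.

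None of the 5 loci captured by all 3 oligos lay in a member. The first, before DLK1 at chr14:100700701-100701150, had log2 ratios of 1.42 with MEG3 TFR1, 2.26 with MEG3 TFR2 and 1.68 with GATA6-AS TFR1. At chr14:101182951-101183350, in the long interval past MEG9, the ratios in the same order were 2.43, 2.41 and 2.16. At chr14:101528401-101529100, in the noncoding gene LOC105370673, they were 2.06, 2.25 and 2.41. The remaining loci lay close to DIO3, at chr14:101548101-101549200 with 1.89, 1.58 and 1.13, and inside DIO3OS at chr14:101557401-101558600. In DIO3OS MEG3 TFR1 had 2 regions of 0.71 and 1.60, MEG3 TFR2 a region of 1.66 and GATA6-AS TFR1 a region of 1.28.

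The gene names deposited beside the regions often name a gene that the region does not touch, which is why the RefSeq table was used instead. MEG3 was named for 13 captured regions, none of which overlapped the gene and the farthest of which lay 124958 bp from it, whereas 13 other captured regions lay in MEG3 and none bore its name. DIO3 was named 14 times and never for a region that overlapped it. DLK1 was named 11 times, and here 6 of the 7 regions inside the gene were so named. Names of miRNA and snoRNA genes appeared 58 times, with 1 of the genes overlapped and 6 within 1 kb. Most names whose gene was not overlapped carried a plus or minus sign. Of 114 such names matched to a gene, 1 was overlapped, while 9 of 10 names with no sign were. The autosomes gave the same picture, with 1.70%, 1.76% and 1.60% of signed names overlapped and 89.8%, 90.1% and 89.1% of unsigned ones in the captured lists. The meaning of the sign is not given in the sources used here, though among the 114 names it went with the side on which the gene lies. A plus went with genes at higher coordinates and a minus with genes at lower ones, except for the 1 overlapped gene, which had a plus. A GATA6-AS TFR1 region between DLK1 and MEG3, at chr14:100738701-100739150, bears DLK1 with a minus and MEG3 with a plus.

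**Figure D5:**
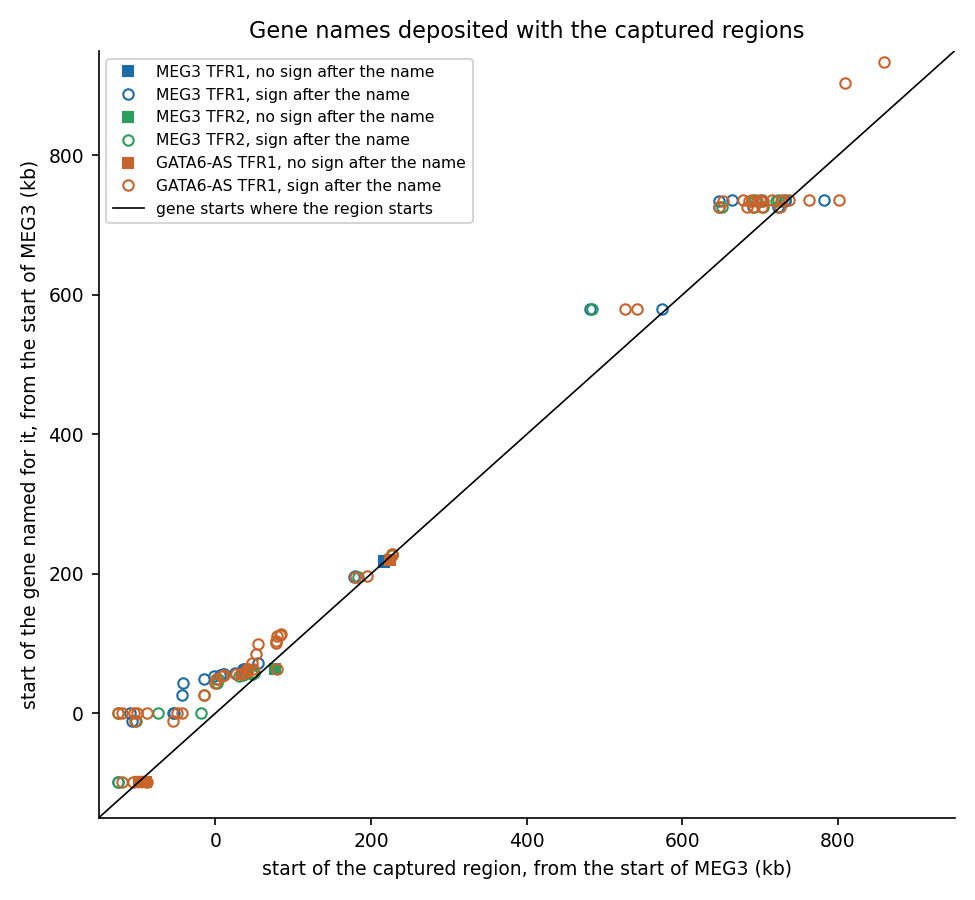
Start of the gene named for a captured region against the start of that region, both as distance from the start of MEG3 in kb, with filled squares for names with no sign and open circles for names followed by a sign. Squares lie close to the line on which gene and region start together, and many circles form level rows in which a single gene is named for regions far apart.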

How the data were processed

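The assay sequenced DNA held by an RNA oligo, in 8 libraries of 4 groups. Reads were handled with FastQC and BWA (0.7.15-r1140) on build hg38, per the submitters' processing notes. The region caller, with its threshold and scaling, is not given in the sources used here. Input libraries named in the design were not analysed here. The authors deposited 6 region lists with a log2 ratio for each region, made from the libraries of a group together. The log2 scale was inferred: raised as a power of 2, 100% of the domain's values gave a fraction of integers whose denominator did not exceed 400 (tolerance 1e-09). The depth per library is unknown, and no column of values per library was left unused.

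Coordinates are printed from 1. Regions were counted where at least 1 bp lay in the window, placed on 59792 genes of the RefSeq table of GRCh38.p14, and compared with the autosomes, chromosome 14 and 1 Mb windows. Alternatives were the 50% of each list with the largest ratios, regions within 200 bp joined, midpoints, a window 100 kb longer at each end, covered bases, chromosome 14 as comparison, overlap of 0.5 of the shorter region, and other gene edges of 0 or 5 kb. The counting was tested on simulated regions. Named were all members, the 5 highest captured regions per oligo, every overlapped miRNA or snoRNA gene, and loci that mark places. Loci captured by all 3 oligos, the genes with captured promoters and the control regions were added after their values were seen. The members and lists were chosen with earlier results of these data known. Python 3.11.15, numpy 2.4.6, pandas 2.3.3, scipy 1.17.1 and matplotlib 3.10.9 were used.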

Additional observations from a re-analysis of the deposited data

How the results depend on the processing

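Of 51 recomputed values of 23 results, 40 stayed within 1.5 times the reported value or, for shares and ratios, within its 95% binomial interval for counting error, and 11 moved. That interval treats each region as an independent count. Regions are not replicates, so it does not measure the spread between libraries and serves only to sort the values. Keeping the 50% of each list with the largest ratios lowers the counts of regions by its design. It left 27 captured regions with MEG3 TFR2, against 46, and 63 with GATA6-AS TFR1, against 112, both sorted as moved. With MEG3 TFR1 it left 42, against 61, which was not. It left 0 control regions with MEG3 TFR1, against 1, and 1 with GATA6-AS TFR1, against 5, raised the MEG3 TFR1 density over the autosomes to 2.62 times, against 1.91, and left 1 member with MEG3 TFR2, against 4, where 24.8% of all autosomal genes were reached, against 35.6%. The GATA6-AS TFR1 ratio of captured to control regions, 22.4, became 63 under that setting and 42.9 when covered bases were counted, both inside its wide interval. Captured regions per control region cannot be given for either MEG3 oligo under that setting. The longer window held 1.67 MEG3 TFR1 control regions per Mb, against 1. With gene edges of 5 kb MEG3 TFR1 reached 5 members, against 3, and 51.6% of all autosomal genes, against 39.1%. With 1 kb to each side, 4, 5 and 12 miRNA genes were reached, against 1, 0 and 3, for MEG3 TFR1, TFR2 and the GATA6-AS oligo in that order, and no snoRNA gene; of all autosomal miRNA genes 16.8%, 14% and 30.2% were. No paired analysis was possible because the lists hold no value per library, and for the same reason no library could be left out. What a ratio counts and its error are unknown.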
